A study of Mus musculus with 6 samples.

Results

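Complex I (NADH dehydrogenase) genes of both genomes were followed in mouse orbitofrontal cortex after knockdown of circHomer1a, a circular RNA spliced from exons of Homer1. The 45 genes were chosen by name (Nduf followed by a, b, c, s or v and a number, Ndufab1, and mt-Nd) from 13348 listed genes, with the assembly factors named Ndufaf left out. Of these, 38 lie in the nuclear genome and 7 in the mitochondrial genome, and all 45 averaged at least 1 FPKM (fragments scaled by transcript length and by the library's mapped fragments) over the libraries and were tested. The knockdown group was 3 libraries of C57BL/6 mice aged 12 weeks whose orbitofrontal cortex was injected with a lentivirus whose short hairpin RNA (shRNA) targets the junction that closes circHomer1a. The control group was 3 libraries of the same strain and age that, per the series title, received a scrambled shRNA. The labels give neither the promoter that drives the shRNA nor the share of cells it reached, and the dissected tissue may hold cells that were not infected. Whether each sample is an animal of its own is not stated either, so the p-values speak only of the spread among these 6 samples, and part of that spread may be technical.

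Complex I is the first and largest enzyme of the respiratory chain. It takes electrons from NADH through a flavin and a row of iron-sulfur clusters to ubiquinone, and uses the energy to pump protons across the inner mitochondrial membrane. Its catalytic core is built from both genomes: nuclear genes encode the NADH-binding (N) and ubiquinone-binding (Q) modules, the mitochondrial genome encodes the hydrophobic core of the membrane arm, and many further nuclear accessory subunits surround the core. Neurons depend heavily on this pathway for ATP, and inherited complex I defects in humans often affect the brain.

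The promoter windows of the nuclear genes are shown first, since promoters of this family in mammals are known to carry sites of NRF1, of the ETS factor GABP and of YY1. RefSeq windows (GRCm38.p6, from 250 bases before to 50 bases after each gene's start) were matched by symbol for 33 of the 38 nuclear genes, and the 27025 genes of the RefSeq window set served as comparison. The letters AAGATGGC, searched on both strands for YY1, stood in 7 of 33 windows (21.2%), against 3.19% of all windows. The stretches below give the gene strand with these letters in capitals, and are shown because the same 8 letters span the start codon in all of them. Their distance from the gene's start differed, from 22 bases after it (Ndufa3 and Ndufc1) to 38 bases after it (Ndufb8).
Ndufa3: cgccaagaacAAGATGGCcgggagtaag
Ndufa9: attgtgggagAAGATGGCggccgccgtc
Ndufb8: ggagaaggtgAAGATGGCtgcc
Ndufc1: cctgcggaacAAGATGGCgccgtccgta
Ndufs4: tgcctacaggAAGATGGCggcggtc
Ndufs6: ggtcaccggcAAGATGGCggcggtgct
Ndufs7: ggccgaggccAAGATGGCggcgctggcg
In 7 of 7 the ATG inside the letters was the annotated start codon, which was so in 174 of the 862 genes of the RefSeq window set that hold them (20.2%). Only letters on the gene strand were checked for this, while the 862 genes hold them on either strand, so 20.2% may be too low for comparison. The positions of the stretches were chr7:3617385-3617412 (plus strand) for Ndufa3, chr6:126849098-126849125 (minus) for Ndufa9, chr19:44555393-44555414 (minus) for Ndufb8 and chr3:51408916-51408943 (minus) for Ndufc1. Those of the others were chr13:114388045-114388069 (minus) for Ndufs4, chr13:73328433-73328459 (minus) for Ndufs6 and chr10:80249463-80249490 (plus) for Ndufs7. The palindrome GCGCATGCGC, searched for NRF1, stood in 1 of 33 windows (3.03%, against 1.07% of all), that of Ndufa11, at chr17:56717692-56717721 (plus strand).
Ndufa11: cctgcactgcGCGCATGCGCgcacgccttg
Its inner letters GCATGC, a match that every full palindrome contains, stood in 3 of 33 windows (9.09%, against 8.93%). The ETS letters CCGGAAG stood in 4 of 33 windows (12.1%, against 9.93%), those of Ndufb6, Ndufb7, Ndufs3 and Ndufs8. A match describes the letters and shows no binding. The median log2 fold change was -0.13 in the 7 genes with AAGATGGC and -0.12 in the 26 without it.

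The libraries were first checked as a whole. Low FPKM values did not step by whole reads, so the depth of each library is unknown and precision comes from the replicates alone. The FPKM of listed genes summed to between 256047 and 277103 in knockdown and between 264518 and 285833 in control libraries. All 6 neuron markers were present, and Snap25, a synaptic fusion protein, lay between 336 and 397 FPKM in knockdown and between 277 and 434 FPKM in control libraries. The circular RNA itself was not measured here. The values of its host gene Homer1, at 7.44, 16.1 and 9.47 FPKM in knockdown libraries against 12.1, 8.97 and 12.1 FPKM in control libraries, do not check the knockdown.

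No complex I gene passed the test between knockdown and control. With limma on log2(FPKM + 1) and Benjamini-Hochberg adjustment at 0.05 over 11961 genes, 0 of 45 were called, where 0% of all tested genes were called. The smallest adjusted p was 0.948 among the 45 genes and 0.0692 among all genes. At an unadjusted p under 0.05, 1 of 45 passed (Ndufa12), against a background of 3.57%. With every library scaled to the same FPKM sum, without knockdown 1 or without control 2, 0 of 45 did. The count rose to 3 of 45 without knockdown 3 and to 2 of 45 without control 1. The 95% interval of the log2 fold change spanned 0 in 44 of 45, with a median half-width of 0.34.

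The fold changes leaned to one side by small amounts. Of the 45 genes, 42 had a lower mean in knockdown libraries, 35 of 38 nuclear and 7 of 7 mitochondrial, where 44.3% of all tested genes had a negative log2 fold change. The median log2 fold change was -0.12 over the nuclear genes and -0.19 over the mitochondrial genes, against 0.02 over all tested genes. A higher mean was found in 3 genes, among them Ndufa9 (0.09) and Ndufv1 (0.01). In 2 of 45 every knockdown library lay below every control library (Ndufa12 and Ndufb10), where 3.47% of all tested genes had this order. The genes share libraries and move together, so these counts are not independent observations.

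**Figure D1:**
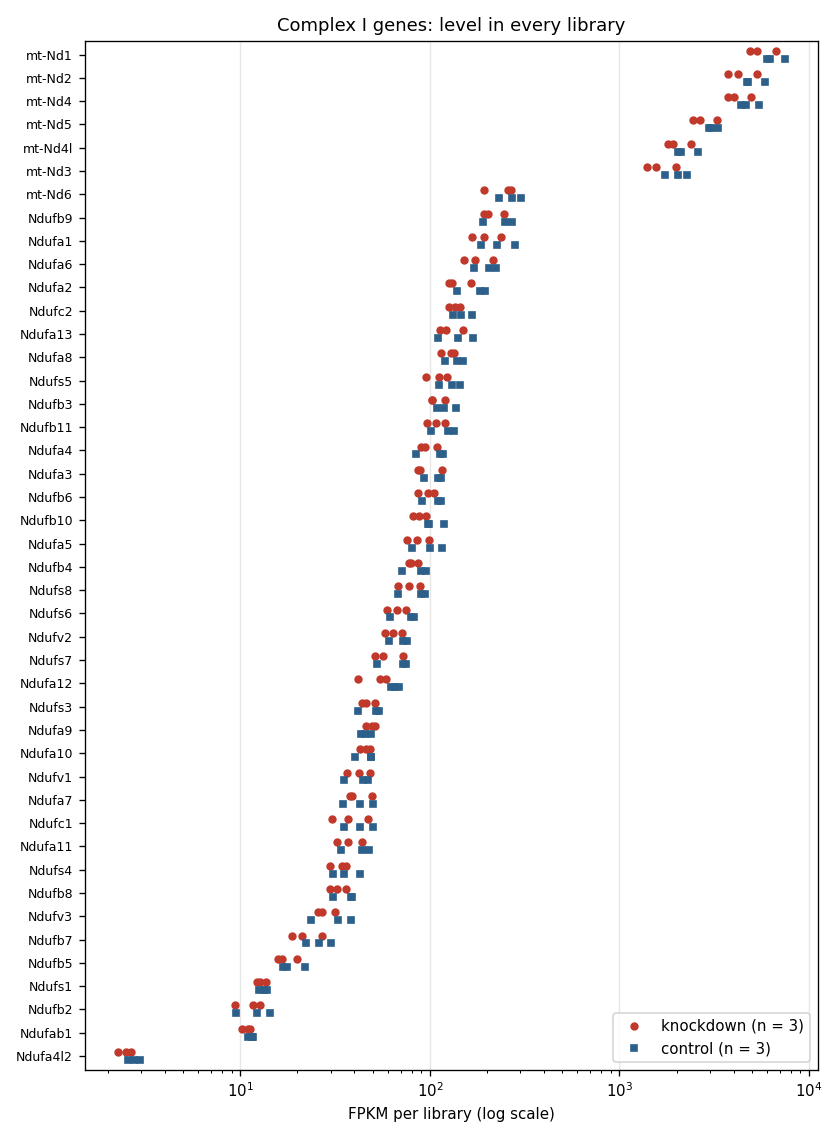
FPKM of 44 of the 45 complex I genes on a log axis, ordered by mean, with 3 knockdown libraries (circles, upper row of each gene) above 3 control libraries (squares). The points of the groups overlap in all genes drawn but Ndufa12 and Ndufb10, and 6 of the 7 mitochondrial genes stand apart from the nuclear genes by level.

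By gene value, mitochondrial genes other than mt-Nd6 were far more abundant per length than nuclear ones. The exception, mt-Nd6, averaged 254 FPKM against 226 FPKM for the highest nuclear gene, Ndufb9. The 7 mt-Nd genes summed to 18190, 20030 and 24840 FPKM in knockdown libraries 1 to 3, against 22860, 27230 and 22370 FPKM in control libraries 1 to 3. The 38 nuclear genes summed to 2586, 2809 and 3249 FPKM in knockdown libraries, against 2702, 3545 and 3300 FPKM in control libraries. In both sums control 2 was highest and knockdown 1 lowest, and the groups overlapped. The mitochondrial sum averaged 21020 ± 3434 FPKM in knockdown and 24150 ± 2676 FPKM in control libraries (SD, n = 3 each). The nuclear sum averaged 2881 ± 337 FPKM in knockdown and 3182 ± 434 FPKM in control libraries. Each difference was smaller than the SD of at least 1 group. Bulk RNA cannot tell fewer cells of a type from less RNA per cell, so these are levels of the tissue as dissected.

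The balance of the genomes varied more between control libraries than between groups. The mitochondrial sum was 7.04, 7.13 and 7.64 times the nuclear sum in knockdown libraries 1 to 3, against 8.46, 7.68 and 6.78 times in control libraries 1 to 3. These ratios use gene values, and most nuclear genes had a higher value when their listed transcripts were summed. Ndufb7, for example, averaged 24.2 FPKM as a gene but 147.2 FPKM in its only listed transcript. The mitochondrial members had the same value as gene and as transcript, so transcript values would give lower ratios. Control 1 held the highest and control 3 the lowest ratio, with all 3 knockdown libraries between them. The ratio averaged 7.27 ± 0.327 in knockdown and 7.64 ± 0.841 in control libraries (SD, n = 3 each). The nuclear and mitochondrial median log2 fold changes differed by -0.07 (mitochondrial minus nuclear), and this difference turned to 0.02 without control 1 and to 0.02 under quantile normalization.

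**Figure D2:**
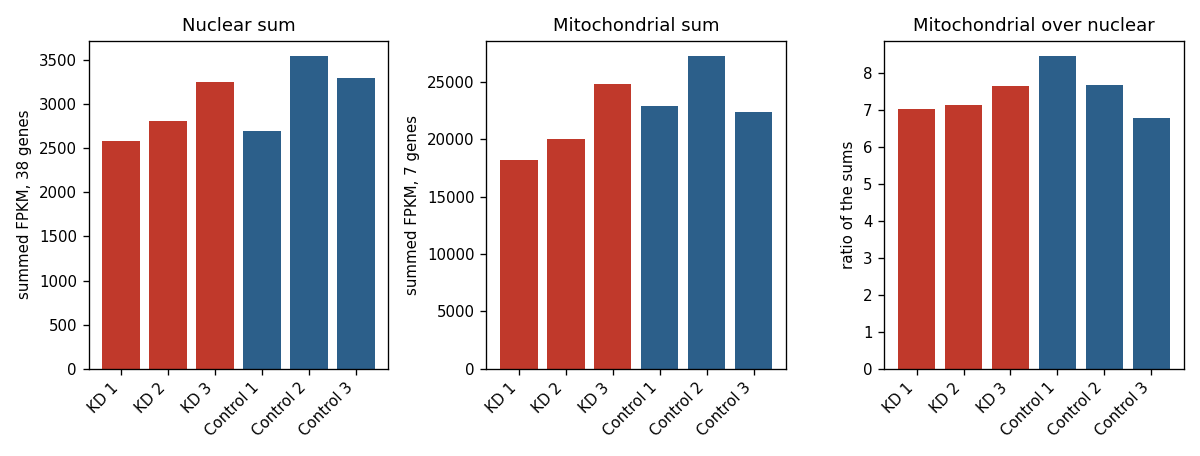
Summed FPKM of the 38 nuclear genes (left), of the 7 mitochondrial genes (middle) and their ratio (right) in each of 3 knockdown (KD) and 3 control libraries, 1 bar per library. Control 2 has the highest bar in both sums, while the ratio is highest in control 1 (8.46) and lowest in control 3 (6.78).

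Single libraries moved nearly all members at once. For each gene, log2(FPKM + 1) was taken relative to its mean over the 6 libraries, and the median over genes gives a library's deviation. The nuclear deviations were -0.20, -0.09 and 0.10 in knockdown libraries 1 to 3, against -0.16, 0.23 and 0.11 in control libraries 1 to 3. The mitochondrial deviations were -0.31, -0.15 and 0.15 in knockdown libraries, against 0.05, 0.28 and -0.01 in control libraries. Knockdown 1 was low and control 2 high in both genomes, while control 1 was low for nuclear genes only and near the mean for mitochondrial ones. Control 2 held the highest value of 26 of 38 nuclear genes and of 6 of 7 mitochondrial genes, against 20.02% of all tested genes. Knockdown 1 held the lowest value of 21 of 38 nuclear genes and of 7 of 7 mitochondrial genes, against 14.2% of all tested genes. Control 1 held the lowest value of 11 of 38 nuclear genes, against 10.7% of all tested genes.

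The group medians rested on these libraries. The nuclear median of -0.12 became -0.04 without knockdown 1 and -0.05 without control 2, and -0.20 without knockdown 3 and -0.23 without control 1. The mitochondrial median of -0.19 became -0.11 without knockdown 1, -0.12 without control 2 and -0.30 without knockdown 3. Without control 2, 27 of 38 nuclear genes had a lower mean in knockdown libraries. With every library scaled to the same FPKM sum, 30 of 38 did, and the nuclear median was -0.07. Under quantile normalization the mitochondrial median was -0.07, and 4 of 7 mitochondrial genes were lower and the other 3 (mt-Nd1, mt-Nd2 and mt-Nd4) were at 0.

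**Figure D3:**
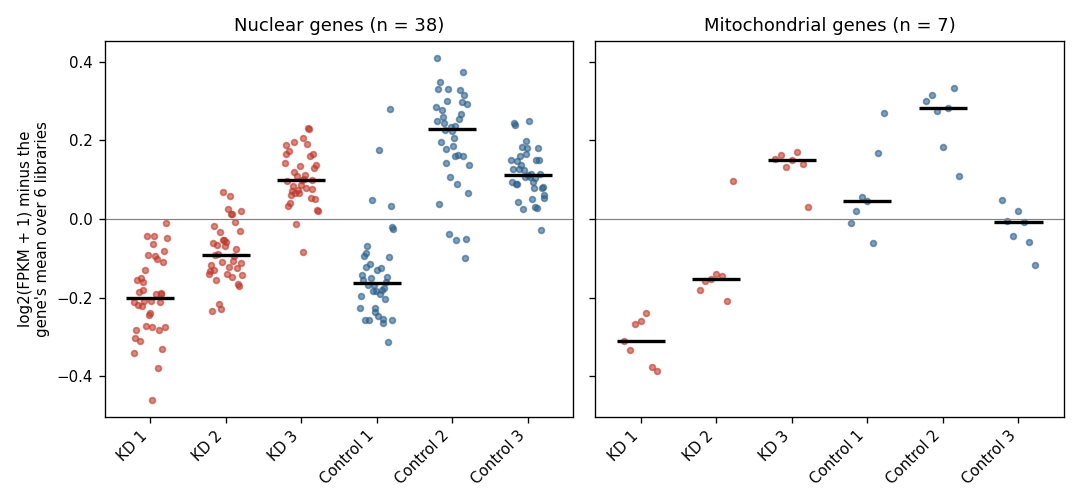
Each point is a complex I gene's log2(FPKM + 1) minus its mean over the 6 libraries, in 3 knockdown (KD) and 3 control libraries, with the median as a black bar, for nuclear (left) and mitochondrial (right) genes. Knockdown 1 lies low and control 2 high in both panels, and control 1 lies low only among the nuclear genes.

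Short genes in general had a library pattern like that of the nuclear members. A comparison by union exon length, added after seeing the data, used GENCODE M21 models, which gave a length for 11936 of the 11961 tested genes. Nuclear complex I genes are short, with a median of 1532 bases against 4476 over all tested genes. The median log2 fold change of all tested genes was -0.15 in the 173 genes of up to 800 bases, -0.10 from 801 to 1500, -0.03 from 1501 to 3000, 0.01 from 3001 to 5000 and 0.06 over 5000. The shortest class, with 84.4% of its genes lower in knockdown libraries, deviated by -0.16, -0.15 and 0.08 in knockdown libraries 1 to 3, against -0.10, 0.26 and 0.07 in control libraries 1 to 3. The mitochondrial members departed from it in knockdown 1 (-0.31), control 1 (0.05) and control 3 (-0.01). The median of the nuclear complex I genes was -0.16 up to 800 bases (5 genes), -0.14 from 801 to 1500 (14), -0.06 from 1501 to 3000 (11), -0.13 from 3001 to 5000 (5) and -0.07 over 5000 (3). Union length can far exceed a gene's transcripts. Ndufb7 has 4522 bases of exon but 1 listed transcript of 623 bases, and Ndufab1 has 6883 against 1416 in its main transcript. Members of the long classes are thus not all long as transcripts, which also limits subtracting a class median. After subtracting the class median, the nuclear median was -0.05 and the mitochondrial median -0.12. The part of exon length in the fold changes was not tested beyond this subtraction.

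**Figure D4:**
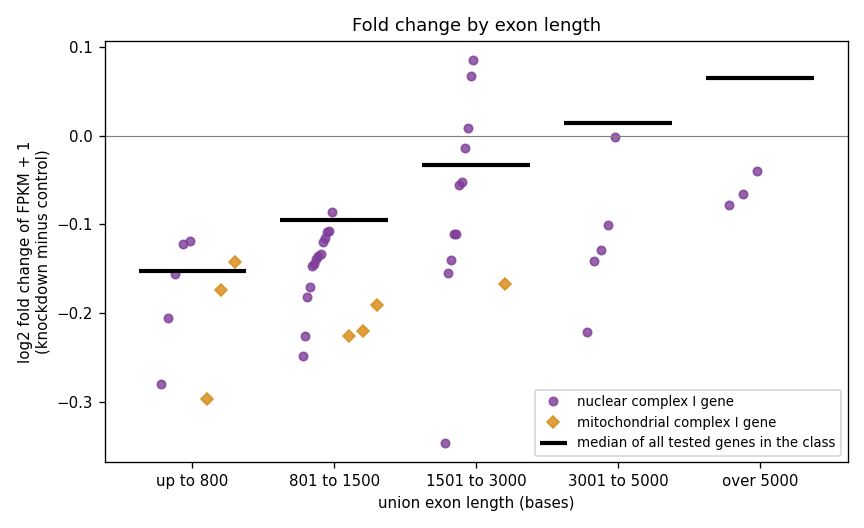
Log2 fold change of FPKM + 1 (knockdown minus control) by class of union exon length in bases, for nuclear (circles) and mitochondrial (diamonds) complex I genes, with the median of all tested genes of each class as a black bar. The bars climb from -0.15 in the shortest to 0.06 in the longest class, and most complex I genes lie in the 3 shortest classes.

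The mitochondrial members, all core subunits of the membrane arm, were led by mt-Nd1, which forms part of the passage for ubiquinone. It lay at 4865, 5328 and 6710 FPKM in knockdown libraries 1 to 3, against 5993, 7433 and 6240 FPKM in control libraries 1 to 3. Its log2 fold change was -0.23 (SE 0.20, limma adjusted p = 0.948), and knockdown 3 lay above 2 of the control libraries. The antiporter-like proton pumping subunits followed in level. Of these, mt-Nd2 lay at 3749, 4233 and 5291 FPKM in knockdown against 4789, 5880 and 4706 FPKM in control libraries. The next, mt-Nd4, lay at 3740, 4044 and 4933 FPKM in knockdown against 4674, 5442 and 4363 FPKM in control libraries. Lower stood mt-Nd5, at 2448, 2664 and 3254 FPKM in knockdown against 3029, 3330 and 2976 FPKM in control libraries. Their log2 fold changes were -0.22, -0.19 and -0.17, and in all 3 the groups overlapped through a high knockdown 3.

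The small membrane subunits mt-Nd3 and mt-Nd4l are encoded by genes that lie close together without touching. The values of mt-Nd3 were 1396, 1568 and 1996 FPKM in knockdown libraries against 2035, 2284 and 1741 FPKM in control libraries, with a log2 fold change of -0.30, the lowest of the 7 (SE 0.18, 95% interval -0.73 to 0.13, limma adjusted p = 0.948). Those of mt-Nd4l were 1803, 1924 and 2397 FPKM in knockdown libraries against 2040, 2591 and 2117 FPKM in control libraries, with a log2 fold change of -0.14. Only control 3 kept mt-Nd3 from separating the groups, as its value lay below that of knockdown 3. Unlike the other 6, mt-Nd6 is encoded on the minus strand of the table's coordinates. It lay at 192, 269 and 257 FPKM in knockdown libraries against 303, 271 and 232 FPKM in control libraries, with a log2 fold change of -0.17. That value rested on single libraries, at -0.02 without knockdown 1 and -0.08 without control 1. Its highest library was control 1, where the other 6 peaked in control 2. The ratio of mt-Nd6 to mt-Nd5 was 0.0784, 0.101 and 0.0790 in knockdown against 0.1001, 0.0814 and 0.0779 in control libraries, so a high ratio came once in each group.

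The order of the mitochondrial levels, from mt-Nd1 over mt-Nd2, mt-Nd4, mt-Nd5, mt-Nd4l and mt-Nd3 to mt-Nd6, was the same in 6 of 6 libraries. Neighbours such as mt-Nd2 and mt-Nd4, at 4424 ± 789 and 4239 ± 620 FPKM in knockdown libraries (SD, n = 3), overlapped over libraries although their order held within each. The mean of mt-Nd1 was 24.0 times that of mt-Nd6, and 6 of the 7 were among the 20 highest genes of the table. The lowest plus-strand member, mt-Nd3, still averaged 8.13 times the highest nuclear gene. That multiple rests on gene values. Ndufb9, the highest nuclear gene, averaged 226 FPKM as a gene but 330.7 FPKM in its only listed transcript. For mt-Nd3 the gene and its transcript both averaged 1837 FPKM. On the mitochondrial chromosome, in the tables' coordinates, the genes span chrM:2751-3707 (mt-Nd1), chrM:3914-4951 (mt-Nd2), chrM:9459-9806 (mt-Nd3), chrM:9877-10173 (mt-Nd4l), chrM:10167-11544 (mt-Nd4), chrM:11742-13565 (mt-Nd5) and chrM:13552-14070 (mt-Nd6). The exons of mt-Nd4l and mt-Nd4 share 7 bases, and those of mt-Nd5 and mt-Nd6 share 14 on opposite strands. The nuclear genome holds copies of mitochondrial sequence, and how fragments that match both were assigned is not given in the sources used here, which leaves these levels uncertain.

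The nuclear core subunits had the smallest median shift of the nuclear groups. Of 7, 5 had a lower mean in knockdown libraries, with a median log2 fold change of -0.06, against 28 of 29 and -0.14 for the accessory subunits. The core genes are longer, with a median exon length of 2178 bases against 1251 for the accessory genes, and the difference between these medians was not tested. In the N module, Ndufv1, which binds NADH and the flavin, lay at 36.7, 42.4 and 48.1 FPKM in knockdown libraries 1 to 3, against 35.1, 47.2 and 44.5 FPKM in control libraries 1 to 3. Ndufv2, an iron-sulfur subunit beside it, lay at 57.7, 64.1 and 71.6 FPKM in knockdown against 60.9, 76.1 and 72.2 FPKM in control libraries. By gene value Ndufs1, which carries most of the module's clusters, was the steadiest nuclear gene. It lay at 12.3, 12.8 and 13.6 FPKM in knockdown against 13.4, 12.6 and 13.9 FPKM in control libraries. Its highest library was 1.13 times its lowest, where the median nuclear member had 1.39 times. Its 2 listed transcripts were less steady, with the highest library at 20.6 times the lowest in Ndufs1-201 and 4.06 times in Ndufs1-203. The log2 fold changes of the 3 genes were 0.01, -0.11 and -0.04. The first turned negative without control 1 (-0.12). The last turned positive with every library scaled to the same sum (0.02) and with its listed transcripts summed (0.09).

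In the Q module, Ndufs7, which lies at the ubiquinone site, lay at 51.5, 56.7 and 72.4 FPKM in knockdown libraries 1 to 3, against 52.6, 72.4 and 74.5 FPKM in control libraries 1 to 3, with a log2 fold change of -0.14. Its groups overlapped, with knockdown 3 above control 1. Ndufs3, a scaffold of the module, lay at 45.8, 43.9 and 51.5 FPKM in knockdown against 41.9, 53.6 and 51.9 FPKM in control libraries. Ndufs8, which passes electrons through a pair of clusters, lay at 67.5, 77.2 and 88.2 FPKM in knockdown against 67.9, 94.4 and 90.0 FPKM in control libraries. Their log2 fold changes were -0.06 and -0.11, and control 1 was at or near the low end in both.

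Among the accessory subunits, Ndufa12 had the smallest unadjusted p. It sits on the peripheral arm, where it takes the place of the assembly factor Ndufaf2. It lay at 41.8, 58.9 and 54.5 FPKM in knockdown libraries 1 to 3, against 65.4, 68.4 and 62.4 FPKM in control libraries 1 to 3. The groups did not overlap, and its mean in knockdown libraries was 79.1% of the control mean, with a log2 fold change of -0.35 (SE 0.13, 95% interval -0.66 to -0.03, limma adjusted p = 0.948). Without knockdown 1, its lowest library, the log2 fold change was -0.20. Control 1, low for most nuclear genes, was not low here. Ndufb10, a membrane arm subunit with cysteine pairs on the intermembrane side, lay at 87.7, 81.7 and 95.1 FPKM in knockdown against 99.3, 118 and 97.7 FPKM in control libraries, again without overlap (log2 fold change -0.25, 95% interval -0.51 to 0.01, and -0.16 without control 2). The gap between its groups was small, from 95.1 FPKM in knockdown 3 to 97.7 FPKM in control 3. It was seen in the gene value only. Ndufb10-201, with 97.2% of the gene's listed transcript FPKM, overlapped between groups. This transcript lay at 83.2, 67.1 and 96.4 FPKM in knockdown against 49.99, 168.9 and 91.2 FPKM in control libraries. With the listed transcripts summed, the gene's log2 fold change was -0.15.

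The next by p were Ndufa2, a thioredoxin-like subunit of the N module, and Ndufs5, a cysteine-rich subunit facing the intermembrane space. Ndufa2 lay at 127, 131 and 165 FPKM in knockdown libraries against 138, 194 and 183 FPKM in control libraries, with a log2 fold change of -0.28. Ndufs5 lay at 95.3, 111 and 124 FPKM in knockdown against 112, 144 and 131 FPKM in control libraries, with a log2 fold change of -0.23. In both, knockdown 3 lay above control 1 and the limma adjusted p was 0.948. The highest nuclear gene was Ndufb9, a membrane arm subunit of the LYR family, at 193, 203 and 247 FPKM in knockdown against 191, 273 and 249 FPKM in control libraries. Here control 1 was the lowest of all 6 libraries.

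By name group, 12 of 13 Ndufa accessory genes, 12 of 12 Ndufb and Ndufc genes and 4 of 4 Ndufs and Ndufv accessory genes had a lower mean in knockdown libraries, with median log2 fold changes of -0.13, -0.13 and -0.14. The exception, Ndufa9, a subunit that holds NADPH near the Q module, averaged 49.0 ± 2.74 FPKM in knockdown and 46.1 ± 2.87 FPKM in control libraries (SD, n = 3 each). Ndufs4, whose loss gives a Leigh-like encephalopathy in mice, averaged 33.4 ± 3.23 FPKM in knockdown and 36.3 ± 6.00 FPKM in control libraries. Ndufab1, the mitochondrial acyl carrier protein, averaged 10.8 ± 0.565 FPKM in knockdown and 11.4 ± 0.392 FPKM in control libraries. The X-linked Ndufa1 had the widest spread of the nuclear genes, with its highest library at 1.69 times its lowest, and averaged 199.5 ± 35.8 FPKM in knockdown and 231 ± 48.7 FPKM in control libraries.

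Ndufa4 and Ndufa4l2 stand outside the complex as it is now drawn. The first, today counted with cytochrome oxidase (complex IV), lay at 89.9, 94.5 and 109 FPKM in knockdown libraries 1 to 3, against 84.0, 118 and 112 FPKM in control libraries 1 to 3. The second, induced by low oxygen in other cells, was the lowest of all members, at 2.48, 2.26 and 2.65 FPKM in knockdown against 2.54, 2.96 and 2.76 FPKM in control libraries. Their log2 fold changes were -0.09 and -0.12, and without both the nuclear median was -0.13. Nuclear means ran from 2.61 to 226 FPKM, with a median of 68.9 FPKM, with 13 genes above 100 FPKM and 5 below 20 FPKM. These are gene values, and among the 5, Ndufb5 averaged 18.1 FPKM as a gene but 71.1 FPKM in its main transcript. Exons of 17 nuclear members overlap those of another annotated gene, 15 of them on the opposite strand. The library kit keeps strand, but whether counting used it is not stated, and in Ndufb2, Ndufb8 and Ndufb9 the overlap is on the same strand, so these 17 values may hold fragments of a neighbour.

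At transcript level the members listed 81 transcripts, of which 74 were tested and 0 called by limma at an adjusted p under 0.05, where 0.103% of 18476 tested transcripts were called. At an unadjusted p under 0.05, 2 of 74 passed, against a background of 3.81%. These were Ndufa12-201, which holds 98.3% of that gene's listed transcript FPKM, and Ndufb5-203. Ndufb5-203 lay at 1.77, 0.953 and 2.12 FPKM in knockdown libraries 1 to 3, against 3.19, 10.8 and 41.3 FPKM in control libraries 1 to 3 (log2 fold change -2.32, or -1.45 without control 3, limma adjusted p = 0.95). Its control values spread over more than 10-fold. The main transcript of the gene, Ndufb5-204, lay at 70.3, 66.5 and 81.3 FPKM in knockdown against 95.7, 61.7 and 51.3 FPKM in control libraries, so control 3, high in the first, was lowest in the second. Next by p came Ndufs5-201, mt-Nd3-201 and Ndufa2-201.

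Transcript values within some members varied widely between single libraries, in about the same share as among all transcripts. A rule set after seeing the values counted transcripts of at least 10 FPKM on average whose highest library was at least 4 times the lowest. It found 6 of 50 member transcripts (12.0%) against 10.99% of all such transcripts, so the members are not set apart here. By the same rule 0 of 44 member genes passed, against 1.52% of all such genes. Ndufv1-202 was listed at 0 in knockdown 1, knockdown 3, control 1 and control 3, and at 30.6 FPKM in knockdown 2 and 42.1 FPKM in control 2. Ndufv1-201 was lowest in those same libraries, at 49.1, 19.1 and 62.9 FPKM in knockdown against 43.9, 14.0 and 59.6 FPKM in control libraries. Ndufs1-201 lay at 18.2, 16.4 and 15.1 FPKM in knockdown against 0.884, 13.3 and 15.8 FPKM in control libraries, while Ndufs1-203 lay at 11.01, 9.87 and 12.4 FPKM in knockdown against 32.3, 8.54 and 7.97 FPKM in control libraries. In each pair the loss in one transcript met a gain in the other within the same library, 1 library of each group for Ndufv1 and control 1 alone for Ndufs1. Transcript values are estimates, and whether transcripts or the assignment of fragments moved was not tested.

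**Figure D5:**
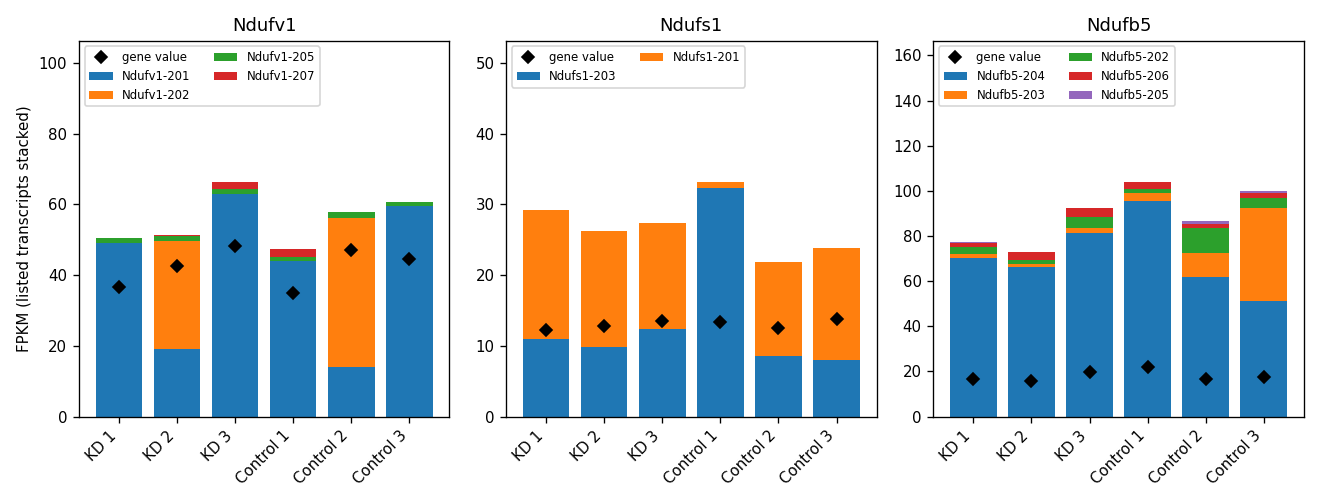
FPKM of the listed transcripts of Ndufv1, Ndufs1 and Ndufb5, stacked, in 3 knockdown (KD) and 3 control libraries, with the gene's own FPKM as a diamond. Ndufv1-202 appears in knockdown 2 and control 2 alone, Ndufs1-201 nearly vanishes in control 1, while the diamonds vary by at most 1.39 times within a gene.

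Genes that work with complex I were counted in the same fit, and 0 were called. Of 15 tested assembly factors, which build the complex but do not stay in it, 9 had a lower mean in knockdown libraries, with a median log2 fold change of -0.05. Ndufaf4 went the other way, at 3.26, 3.52 and 3.68 FPKM in knockdown against 2.96, 2.69 and 2.38 FPKM in control libraries (log2 fold change 0.29, limma adjusted p = 0.948), without overlap. Ndufaf3, its partner in early assembly, lay at 15.7, 17.6 and 19.1 FPKM in knockdown against 18.0, 23.8 and 20.5 FPKM in control libraries. Of 6 other proteins encoded in the mitochondrial genome, 5 were lower, with a median of -0.19, among them mt-Co3 (-0.25) of cytochrome oxidase and mt-Cytb (-0.23) of complex III. Of 19 tested genes for mitochondrial transcription and RNA care, 11 were lower, with a median of -0.03. Supv3l1, a helicase of mitochondrial RNA decay, had a log2 fold change of 0.19. Tfam, which packs mitochondrial DNA and starts its transcription, averaged 6.02 ± 0.208 FPKM in knockdown and 6.54 ± 0.471 FPKM in control libraries (SD, n = 3 each).

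Regulators of nuclear respiratory genes were split in sign. Of 9, 3 had a lower mean in knockdown libraries (33.3%), with a median log2 fold change of 0.10, against 44.3% of all tested genes and 30.8% of those with over 5000 bases of exon, where the median was 0.06. Most of the 9 are of that length. Ppargc1a, a coactivator of mitochondrial biogenesis, lay at 3.53, 3.56 and 3.69 FPKM in knockdown libraries against 3.28, 2.67 and 3.03 FPKM in control libraries. Nrf1, the factor of the palindrome searched above, lay at 1.18, 1.64 and 1.20 FPKM in knockdown against 0.947, 1.06 and 1.01 FPKM in control libraries. In both, as in Ndufaf4, every knockdown library lay above every control library, an order found in 4.45% of all tested genes. They had log2 fold changes of 0.20 (Ppargc1a) and 0.22 (Nrf1), and neither passed limma's test (adjusted p = 0.948).

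Marker genes of other cells differed between the same libraries. The 5 erythrocyte markers summed to 320, 341 and 598 FPKM in knockdown libraries 1 to 3, against 394, 1665 and 542 FPKM in control libraries 1 to 3, and 5 of 5 had a lower mean in knockdown. The 6 oligodendrocyte markers summed to 1459, 1097 and 1250 FPKM in knockdown libraries, against 1173, 959 and 1006 FPKM in control libraries, and 0 of 6 had a lower mean. Control 2, high in complex I genes, was highest in erythrocyte and lowest in oligodendrocyte markers. Knockdown 1, low in complex I genes, was lowest in erythrocyte and highest in oligodendrocyte markers. The 6 neuron markers summed to between 806 and 912 FPKM in knockdown and between 718 and 992 FPKM in control libraries, lowest in control 2. A lower mean in knockdown libraries was found in 2 of 6 astrocyte markers (median log2 fold change 0.23), 3 of 6 microglia markers (median 0.00036) and 1 of 5 endothelial markers (median 0.08), and no marker passed limma's test. In 2 of 6 astrocyte markers every knockdown library lay above every control library, an order found in 4.45% of all tested genes. These were Gja1 (log2 fold change 0.36) and Slc1a2 (0.30). The microglia median hides Cx3cr1, at 8.82, 8.23 and 3.94 FPKM in knockdown against 2.90, 2.86 and 2.02 FPKM in control libraries. Its log2 fold change was 1.10 (limma adjusted p = 0.948). No marker of these lists was at 0, and their part in the fold changes of complex I genes was not tested.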

How the data were processed

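RNA of 6 libraries was measured with a strand-keeping kit, per the labels' protocols. The authors deposited FPKM per gene and per transcript. The submitters' processing notes name FastQC, cutadapt, HISAT2 and StringTie, with no versions or order. The genome build and annotation are not given in the sources used here. The coordinates of 37 of the 45 genes equalled those of GENCODE M21 (GRCm38), whose exons gave lengths and overlaps.

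Values were put on the log2(FPKM + 1) scale and, where the mean reached 1 FPKM, compared with limma 3.58.1 (R 4.3.3, intensity trend, Benjamini-Hochberg over all tested features at 0.05). This scale understates changes of low features. Fold changes are knockdown minus control. The fit was tested on simulated data with residuals shuffled within each gene. Such data lack the shared movement of genes within a library, so the test does not cover it. FPKM carry no depth, so no counting interval was possible. One empty line per table was skipped.

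Members, lists and tests were chosen with earlier results of these data known. Values in every library are given for the mitochondrial members, the nuclear core, the 4 other nuclear members with the smallest p, the highest and the lowest nuclear member, and Ndufa4 and Ndufa4l2. The same rule named the 5 transcripts with the smallest p and the leading genes of related lists. Transcripts of Ndufv1, Ndufs1 and Ndufa10 were picked after their values were seen. An item that the rule named is counted above but not reported here. Alternatives covered the pseudocount (0.1), the filter (none, 5 FPKM), scaling, variance model, library weights, a replicate block, each library left out and summed transcripts. Centring on exon length was added after seeing the data.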

Additional observations from a re-analysis of the deposited data

How the results depend on the processing

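No complex I gene and no complex I transcript was called under any alternative run (0 of each), including the replicate block (0 genes, 0 transcripts). Across genes, the deviations of the 3 pairs of like replicate number had correlations of 0.18, -0.13 and -0.07, against -0.26 to 0.269 for unlike numbers. With 3 libraries a group, these values cannot settle whether the samples were paired. The number of members with a lower mean in knockdown libraries ranged from 34 (without control 2) to 43 of 45. The nuclear median log2 fold change of -0.12 kept its sign, at -0.23 to -0.04 with 1 library left out, -0.07 with a common sum, -0.09 under quantile normalization and -0.05 after centring on exon length. The mitochondrial median of -0.19 kept its sign too, at -0.30 to -0.11 with 1 library left out, -0.13 with a common sum, -0.07 under quantile normalization and -0.12 after centring on exon length. The difference of the medians (-0.07) reversed under quantile normalization (0.023) and ranged from -0.164 to 0.0213 with 1 library left out, above 0 without control 1 alone. Genes near 0 changed sign. With 1 library left out, Ndufa4 ranged from -0.235 to 0.00537, Ndufs3 from -0.164 to 0.0103 and Ndufv1 from -0.117 to 0.106. A common sum gave 0.0156 for Ndufs1 and 0.00347 for Ndufs3, summed transcripts gave 0.0908 for Ndufs1, and median-of-ratios scaling gave -0.018 for Ndufv1. The causes were not tested. With 3 libraries a group and median interval half-widths of 0.32 (nuclear) and 0.43 (mitochondrial), shifts of the size seen were not detectable gene by gene.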

Other observations

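Among the other genes of the mitochondrial genome, mt-Atp6, a subunit of ATP synthase, stood apart in 1 library. It lay at 4345, 4731 and 5762 FPKM in knockdown libraries 1 to 3, against 5206, 1221 and 5254 FPKM in control libraries 1 to 3. Its overlapping neighbour mt-Atp8 lay at 3585, 3858 and 4974 FPKM in knockdown against 4411, 5070 and 4286 FPKM in control libraries, with control 2 as its highest library. The cytochrome oxidase gene mt-Co3, next to mt-Atp6, was likewise highest in control 2.

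Among the complex I transcripts, Ndufa10-201, the listed transcript of an accessory subunit with a kinase-like fold, stood apart in knockdown 3. It lay at 13.9, 13.2 and 77.6 FPKM in knockdown libraries 1 to 3, against 11.1, 13.1 and 12.6 FPKM in control libraries 1 to 3. The gene's own value varied by no more than 1.22 times between libraries.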
